A study of Mus musculus with 24 samples.

Results

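Each of a set of 20 genes was counted in some untreated ID8 line and nearly absent from another, with the remaining lines often in between. ID8 is a mouse ovarian cancer line of surface epithelial origin, and all groups here carry a knockout of both Trp53 and Brca2 per the labels. The lines sampled were the Ifnar1 CRISPR knockout clones 2CD7 and 1CF10, cells given an empty CRISPR vector (EV) and untransfected cells (WT), the last 2 with intact Ifnar1. Each line was sampled treated, meaning 3 h with the type I interferon IFN beta (recombinant, murine, 10000 IU/ml), and untreated. This gave 8 groups of 3 libraries, 24 in all. Per the series design the libraries of a group are technical replicates of a single day. The p-values therefore measure technical spread, and no clone stands for Ifnar1 loss in general. The labels do not state whether EV is a clone or a pool.

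The members were chosen on untreated counts of unique molecular identifiers (UMIs), the tags that mark single captured transcripts. A gene had to reach 30 UMIs or more over the 3 untreated libraries of a line (called on) and 3 or fewer over those of another (called off). Genes on chromosomes X, Y, 12, 14, 18 and the mitochondrial genome were left out, as were genes whose treated sum in WT or EV exceeded 2 times the untreated sum plus 10. Of 24614 genes in the table, 9823 reached the upper limit in a line on the chromosomes used, and 20 of them (0.204%) met the rule, 19 protein-coding genes and a small nucleolar RNA. Untreated differences between lines therefore describe the choice and carry no test. A total of 10 genes stopped just short of the upper limit at 25 to 29 UMIs with another line at 3 or fewer, and 9 more failed because their lowest line held 4 UMIs. The treated libraries of both clones played no part in the rule, so the difference between treated 2CD7 and treated 1CF10 is the tested comparison.

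Cells grown from a single founder inherit that founder's expression state, and a gene that is silent in the founder can stay silent through many divisions. In mammals such inherited silence can involve DNA methylation at CpG sites of the promoter, loss of the gene itself, or the absence of a needed activator, and RNA counts do not distinguish these. Tumour lines are mixtures of cells, so clones from a line commonly differ at genes that the parent line holds at intermediate levels.

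Libraries held 1972192 to 3097331 UMIs, with 15685 to 16951 genes detected and 1.15% to 1.82% of UMIs from mitochondrial genes. The untreated totals per line were 7828150 UMIs in 2CD7, 8205921 in 1CF10, 7414714 in EV and 7116433 in WT. Treated 1CF10 library 3 stood apart: its chi-square per gene was 4.92 and 3.80 against the other libraries of its group, where the remaining pairs had 1.41 to 2.78. Without it, 1496 genes and 16 members were called between the treated clones, against 1788 genes and 16 members with it. That fall was not particular to this library: leaving out single treated libraries of either clone gave 1350 to 1603 genes. Ifnar1 itself had 11 to 44 UMIs per library, and tags at its 3′ end do not check a CRISPR deletion. Of the epithelial and mesothelial markers, Krt8 had 349 to 953 CPM (UMI counts scaled to the library total) and Msln 254 to 389 CPM over the libraries, while Upk3b had 0.803 to 13.5 CPM and Krt7 21 UMIs in all. Of the 14 genes of that list that could be tested, 6 were higher and none lower in treated 2CD7 than in treated 1CF10. Of markers of other cells, over all libraries Csf1r of macrophages had 6 UMIs, Pecam1 of endothelium 17 and Pdgfra of fibroblasts 1. For 9 endothelial genes the summed level was 26.9 to 38.9 CPM in 2CD7 and 27.9 to 33.9 CPM in 1CF10. In EV that sum was 23.2 to 32.4 CPM and in WT 26.4 to 41.5 CPM. Of the 5 endothelial genes that could be tested, none was called between the treated clones. Cd14, known from monocytes and macrophages, had 19 to 58 UMIs in each library and was lower in treated 2CD7 than in treated 1CF10 (log2 difference -0.78, edgeR adjusted p = 0.00785). The summed level of 12 leukocyte genes was 10.5 to 15.4 CPM in 2CD7, 14.5 to 22.8 CPM in 1CF10, 16.7 to 24.4 CPM in EV and 12.5 to 19.9 CPM in WT. The summed level of 14 fibroblast and muscle genes was 32.6 to 44.1 CPM in 2CD7, 141 to 199 CPM in 1CF10, 38 to 51.8 CPM in EV and 63.9 to 92.8 CPM in WT. Col1a1 and Dcn were the called genes among the 4 of them that could be tested, both lower in treated 2CD7 than in treated 1CF10. The part of these marker differences in the results was not tested.

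The counts by line below come from the untreated sums that chose the members, so they describe the choice and were not tested. Untreated 2CD7 was off for 5 members and on for 9, 1CF10 was off for 8 and on for 10, EV was off for 9 and on for 3, and WT was off for 6 and on for 3. The clones were the most opposed pair: 7 members were off in 1CF10 and on in 2CD7, and 5 were off in 2CD7 and on in 1CF10. EV and WT differed in this way at 2 members, Cbfa2t3 and Raet1e, both off in EV and on in WT. No member was on in EV and off in WT. WT held most members at a level between the limits, 11 of 20.

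**Figure D1:**
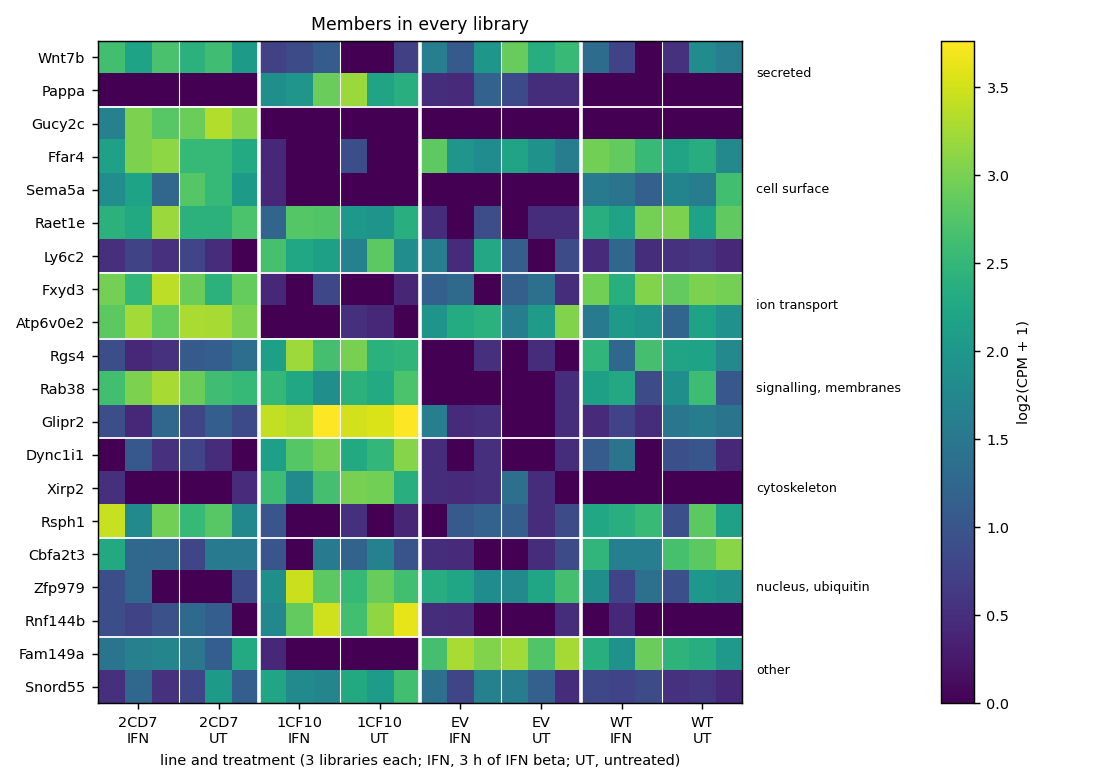
Level of the 20 members in all 24 libraries as log2(CPM + 1), with genes in rows grouped by role and libraries in columns grouped by line and treatment. For 11 members every line that was on or off untreated was so again when treated, leaving aside lines between the limits. The removal step capped the treated sums of EV and WT, so an off state kept in those lines was partly built in. Clones 2CD7 and 1CF10 are dark at opposite genes: Pappa and Xirp2 in 2CD7, Atp6v0e2 and Fam149a in 1CF10.

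In the treated clones the split was still there. Of the 20 members, 16 passed edgeR's quasi-likelihood test between treated 2CD7 and treated 1CF10 with Benjamini-Hochberg adjusted p-values under 0.05, adjusted over the whole table, where 12.3% of genes passed. In bulk RNA, fewer cells with a transcript and less of it per cell cannot be told apart. A set of 8 members was higher in treated 2CD7, where 6.83% of the 14530 genes tested were called higher, and 8 were lower, where 5.48% of genes were called lower. Each of the 12 members on in an untreated clone and off in the other passed, in the direction of the untreated sums. The other members called were Fam149a, Glipr2, Rgs4 and Rnf144b. Libraries of the clones did not overlap in CPM for 9 members higher and 9 lower in treated 2CD7, which 11.4% and 13.1% of all genes tested also did. Cbfa2t3, Rab38, Raet1e and Snord55 did not pass, and 3 of these were chosen because EV was off. Of the 13 cases of a member off in an untreated clone, 9 were also at 3 UMIs or fewer in the treated clone and the highest reached 7 UMIs. Of the 19 cases of a member on in an untreated clone, 17 were again at 30 UMIs or more after treatment and the lowest reached 19.

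**Figure D2:**
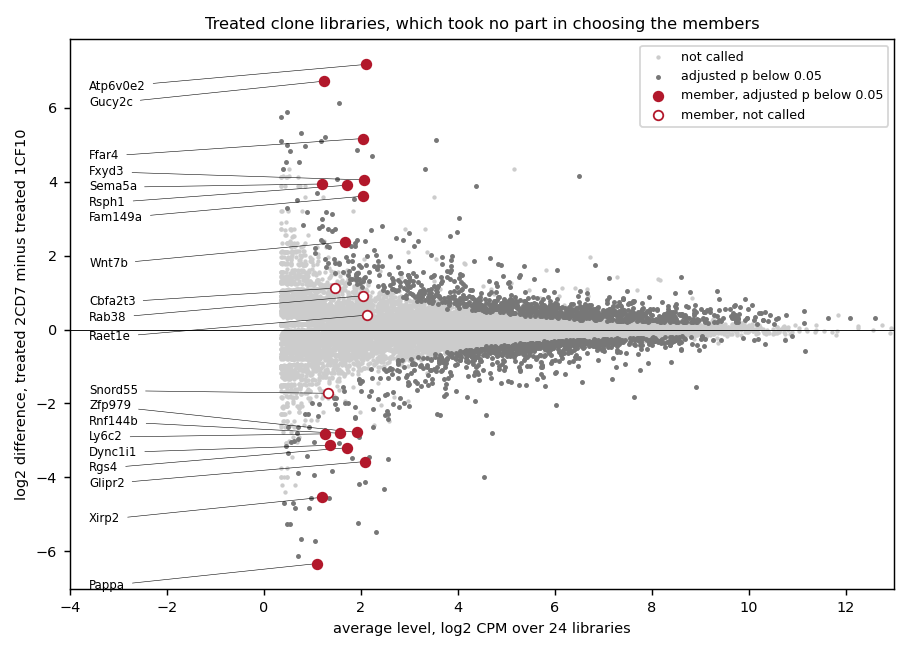
Log2 difference between treated 2CD7 and treated 1CF10 (vertical axis) against average log2 CPM over 24 libraries (horizontal axis) for 14530 genes. Members are red, filled where edgeR's adjusted p was below 0.05: 16 of 20 are filled, 8 above and 8 below 0.

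Secreted proteins were on in opposite clones. Wnt7b, a Wnt ligand (chromosome 15, 85535437 to 85582473, minus strand, GRCm38), had 12, 10 and 12 UMIs in treated 2CD7 and 2, 2 and 3 in treated 1CF10. The untreated libraries held 12, 13 and 8 UMIs in 2CD7, 0, 0 and 2 in 1CF10, 16, 10 and 12 in EV, and 1, 5 and 6 in WT. Clone 2CD7 lay above 1CF10 in each library of both treatments, and untreated WT lay between EV and 1CF10. The treated clones differed by a log2 value of 2.37 ± 0.55 (SE, edgeR adjusted p = 0.00103). Treated EV held 5, 3 and 7 UMIs, fewer than the 10 to 16 of untreated EV. Pappa (chromosome 4, 65124174 to 65357509, plus strand) encodes pregnancy-associated plasma protein A, a protease that frees insulin-like growth factors from a binding protein. It had no UMI in any of the 6 libraries of 2CD7 or the 6 of WT. In 1CF10 it was counted at 8, 7 and 17 UMIs after treatment and 19, 10 and 13 without, and in EV at 1 to 3 UMIs per library. Treated 2CD7 was at least 9.76-fold lower than treated 1CF10, with 0 UMIs replaced by a group floor of 3 (edgeR adjusted p = 1.46e-05).

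At the cell surface, Gucy2c was counted in 2CD7 alone. It encodes guanylate cyclase C, the intestinal receptor for guanylin and for the heat-stable toxin of Escherichia coli, and lies on chromosome 6 (136697284 to 136781765, minus strand). Treated 2CD7 held 5, 20 and 13 UMIs and untreated 2CD7 18, 23 and 19, while each of the 18 libraries of the other lines held 0. Treated 2CD7 was at least 13.8-fold higher than treated 1CF10 (edgeR adjusted p = 5.38e-07), and this call was not made by DESeq2 (adjusted p = 0.557). Ffar4 encodes a receptor for long-chain fatty acids. It had 8, 20 and 17 UMIs in treated 2CD7 and 1, 0 and 0 in treated 1CF10, with 13, 12 and 10 against 2, 0 and 0 untreated. EV (5 to 15 UMIs per library over both treatments) and WT (7 to 18) were closer to 2CD7 than to 1CF10. The ratio of treated 2CD7 to treated 1CF10 was 49.2 (95% counting interval 8.39 to 1990, edgeR adjusted p = 4.84e-08).

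Sema5a, a semaphorin with roles in axon guidance, was off in 1CF10 and EV and on in 2CD7. Treated 2CD7 had 6, 10 and 3 UMIs and treated 1CF10 1, 0 and 0, a ratio of 20.8 (95% counting interval 3.30 to 863, edgeR adjusted p = 0.00123). Untreated 2CD7 had 16, 12 and 8 UMIs, untreated 1CF10 and EV none, and untreated WT 5, 4 and 15. Treated EV had none either. The long noncoding RNA gene Snhg18 starts 148 bp before Sema5a on chromosome 15 and runs the other way (32240565 to 32244662, minus strand, against 32244810 to 32696341, plus strand). Snhg18 was not a member: its highest untreated sum was 29 UMIs, just short of the limit, with 1 in EV. It held 6, 9 and 12 UMIs in treated 2CD7 and 2, 1 and 1 in treated 1CF10, and 0, 0 and 1 in treated EV and 2, 8 and 7 in treated WT. The order of the lines was thus that of Sema5a. Snhg18 differed by 2.79 on the log2 scale between treated 2CD7 and treated 1CF10 (edgeR adjusted p = 0.000989). A single RefSeq promoter window of 300 bases (chr15:32244563-32244862, plus strand, GRCm38.p6) holds both starts and is shown for that reason. Capitals mark its 23 CpG sites, and its observed-to-expected CpG ratio was 0.658 at 71.3% G and C.
Sema5a: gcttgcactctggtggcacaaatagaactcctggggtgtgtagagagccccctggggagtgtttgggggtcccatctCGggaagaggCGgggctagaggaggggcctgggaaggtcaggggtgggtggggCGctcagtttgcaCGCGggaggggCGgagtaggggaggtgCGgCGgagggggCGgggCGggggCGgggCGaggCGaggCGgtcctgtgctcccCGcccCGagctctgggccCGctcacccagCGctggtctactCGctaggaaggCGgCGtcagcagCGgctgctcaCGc

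**Figure D3:**
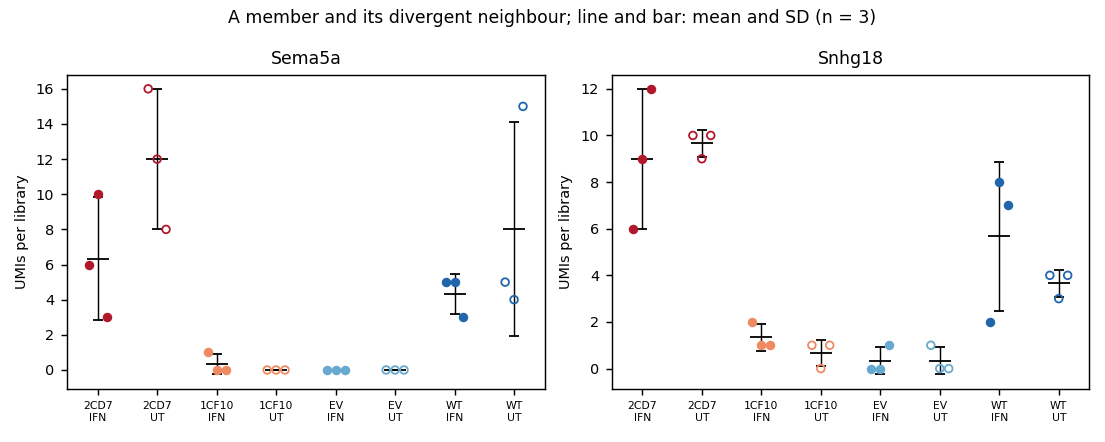
UMIs per library (vertical axis) of Sema5a and of its divergent neighbour Snhg18 in the 8 groups. Filled points are treated and open points untreated libraries, with the mean and SD of 3; both genes sit at 0 to 2 UMIs in each library of 1CF10 and EV and reach 16 and 12 UMIs in 2CD7.

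The remaining surface proteins are uncertain because of close copies. Raet1e encodes a RAE-1 ligand of NKG2D, an activating receptor of natural killer cells. Its annotated body shares exons with the related genes Raet1d and H60b. It had 10, 11 and 18 UMIs in treated 2CD7, 4, 14 and 15 in treated 1CF10, 1, 0 and 2 in treated EV and 11, 10 and 17 in treated WT, with untreated sums of 37, 28, 2 and 41 in the same order of lines. EV was the low line, and the 2 clones overlapped with each other and with WT. Between the treated clones the log2 difference was 0.39 ± 0.39 (SE, edgeR adjusted p = 0.613), with -0.07 when treated 1CF10 library 1 was left out. Ly6c2, a lipid-anchored antigen known from monocytes, had 1, 2 and 1 UMIs in treated 2CD7 and 16, 9 and 9 in treated 1CF10, a log2 difference of -2.82 ± 0.66 (SE, edgeR adjusted p = 0.00128). Its untreated sums were 3 in 2CD7, 30 in 1CF10, 5 in EV and 3 in WT. The near-identical Ly6c1, 59.3 kb away, showed the same order of the clones at 3.57 ± 2.1 CPM in treated 2CD7 and 60.2 ± 3 CPM in treated 1CF10 (SD, n = 3). Reads of the pair may be split, so the value of Ly6c2 alone is uncertain.

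Both ion transport genes were off in 1CF10. Fxyd3, a small membrane regulator of the sodium pump, had 16, 13 and 21 UMIs in treated 2CD7 and 1, 0 and 2 in treated 1CF10, a ratio of 18.2 (95% counting interval 5.89 to 91.3, edgeR adjusted p = 1.38e-07). Untreated it had 18, 11 and 16 UMIs in 2CD7, 0, 0 and 1 in 1CF10, 3, 4 and 1 in EV and 14, 14 and 20 in WT. 2CD7 and WT were alike in range, and EV lay low beside 1CF10. Atp6v0e2, a subunit of the proton pump of acidic organelles, had 14, 24 and 14 UMIs in treated 2CD7 and none in treated 1CF10, at least 18.9-fold higher (edgeR adjusted p = 8.56e-10). Its untreated sums were 64 in 2CD7, 2 in 1CF10, 31 in EV and 18 in WT. The promoter windows of these genes, which were silent in the same clone, are shown to compare their CpG content, with CpG sites in capitals. Atp6v0e2 (chr6:48537319-48537618, plus strand) holds 18 CpG sites with an observed-to-expected ratio of 0.735, and Fxyd3 (chr7:31076648-31076947, minus strand) holds 7 with 0.312.
Atp6v0e2: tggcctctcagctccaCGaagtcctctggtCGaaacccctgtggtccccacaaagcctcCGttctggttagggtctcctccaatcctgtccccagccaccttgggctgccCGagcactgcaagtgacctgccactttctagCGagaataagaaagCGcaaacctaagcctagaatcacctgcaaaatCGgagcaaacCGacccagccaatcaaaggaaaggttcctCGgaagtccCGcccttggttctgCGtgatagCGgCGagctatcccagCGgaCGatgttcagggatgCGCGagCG
Fxyd3: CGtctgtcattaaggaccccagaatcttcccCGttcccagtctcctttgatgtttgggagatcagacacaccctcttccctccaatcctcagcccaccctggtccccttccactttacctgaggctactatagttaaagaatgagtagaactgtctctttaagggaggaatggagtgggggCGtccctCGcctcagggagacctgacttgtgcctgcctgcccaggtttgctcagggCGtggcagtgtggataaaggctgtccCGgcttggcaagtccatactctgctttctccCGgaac

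**Figure D4:**
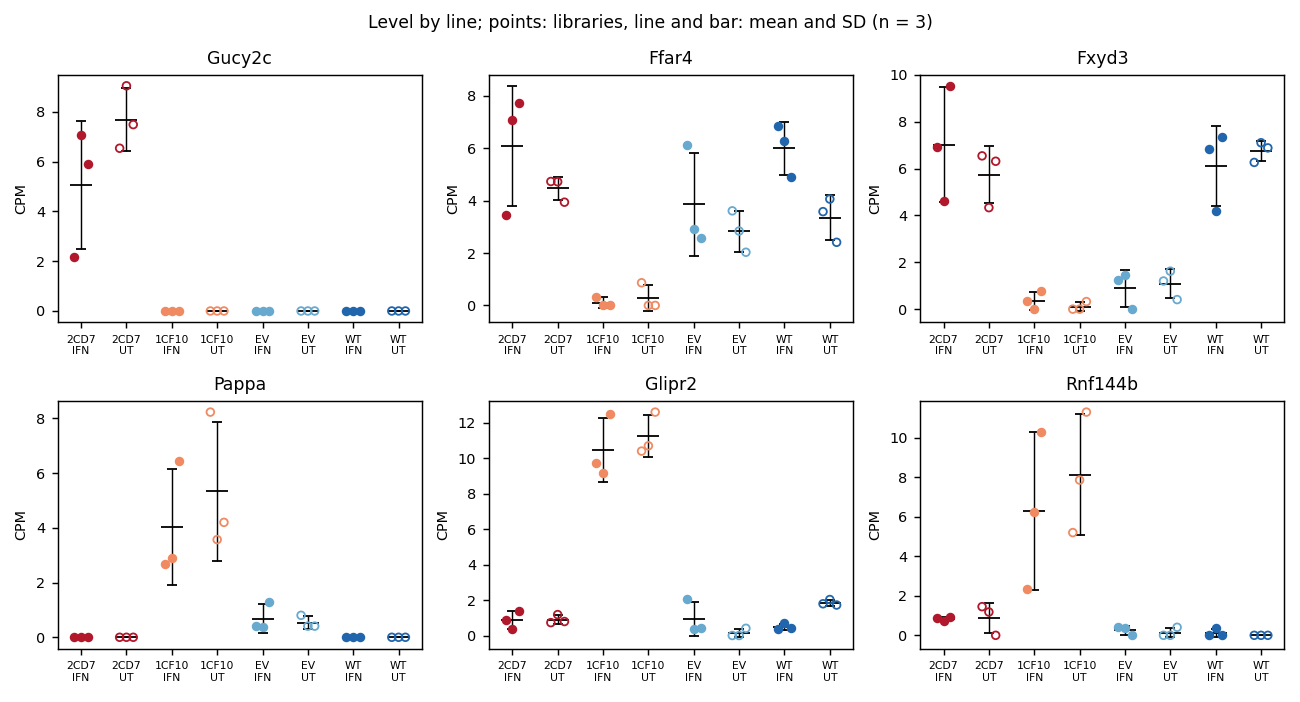
CPM per library of 6 members in the 8 groups, with the mean and SD of 3 libraries; filled points are treated and open points untreated libraries. Gucy2c is above 0 in 2CD7 only, Ffar4 and Fxyd3 are lowest in 1CF10, and Pappa, Glipr2 and Rnf144b are highest in 1CF10.

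Signalling and membrane traffic genes were mostly low in EV. Rgs4, which shortens G protein signals, had 2, 1 and 1 UMIs in treated 2CD7, 10, 20 and 14 in treated 1CF10, 0, 0 and 1 in treated EV and 12, 4 and 13 in treated WT. Between the treated clones the log2 difference was -3.20 ± 0.60 (SE, edgeR adjusted p = 3.52e-05). Untreated sums of Rgs4 were 10 UMIs in 2CD7, 42 in 1CF10, 1 in EV and 22 in WT. Rab38, a small GTPase that delivers cargo to melanosomes and related organelles, had 12, 20 and 19 UMIs in treated 2CD7, 14, 9 and 7 in treated 1CF10, 0 in each treated EV library and 9, 11 and 2 in treated WT. EV thus lay below the other lines, as it did untreated with 1 UMI against sums of 43, 38 and 19 in 2CD7, 1CF10 and WT. Between treated 2CD7 and treated 1CF10 the log2 difference of Rab38 was 0.91 ± 0.37 (SE, edgeR adjusted p = 0.0956). Glipr2, a Golgi-associated protein, was highest in 1CF10, with 2, 1 and 3 UMIs in treated 2CD7 against 29, 22 and 33 in treated 1CF10. The treated sums of EV and WT were 7 and 4, and untreated sums were 7 in 2CD7, 93 in 1CF10, 1 in EV and 13 in WT. The treated clones differed by -3.57 ± 0.44 on the log2 scale (SE, edgeR adjusted p = 1.3e-09), and 1CF10 did not overlap with any other line.

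Among cytoskeletal genes, a motor subunit and a muscle protein were high in 1CF10, and a cilia gene was low there. Dync1i1, an intermediate chain of the motor dynein, had 0, 3 and 1 UMIs in treated 2CD7 and 10, 14 and 18 in treated 1CF10, a log2 difference of -3.13 ± 0.63 (SE, edgeR adjusted p = 0.00012). Its untreated sums, by which it was chosen, were 3 in 2CD7, 45 in 1CF10, 1 in EV and 5 in WT. Xirp2, an actin-binding protein of striated muscle, had 1, 0 and 0 UMIs in treated 2CD7 and 15, 6 and 14 in treated 1CF10, 32.0-fold higher in 1CF10 (95% counting interval 5.38 to 1300, edgeR adjusted p = 3.05e-05). No UMI of Xirp2 was counted in the 6 WT libraries, and EV held 0 to 4 per library. Rsph1, a part of the radial spokes of motile cilia, ran the other way with 23, 7 and 15 UMIs in treated 2CD7 and 3, 0 and 0 in treated 1CF10. That ratio was 16.4 (95% counting interval 5.26 to 82.5, edgeR adjusted p = 6.08e-05). Treated EV held 0, 3 and 3 UMIs of Rsph1 and treated WT 10, 12 and 12, so WT was near 2CD7 and EV near 1CF10.

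The nuclear and ubiquitin genes had a pattern each. Rnf144b, a ubiquitin ligase, had 2, 2 and 2 UMIs in treated 2CD7, 7, 15 and 27 in treated 1CF10, 1, 1 and 0 in treated EV and 0, 1 and 0 in treated WT. Untreated 1CF10 held 12, 22 and 35 UMIs and untreated WT none. The log2 difference of the treated clones was -2.81 ± 0.58 (SE, edgeR adjusted p = 0.000253), and 1CF10 was above each other line in every library. Zfp979, a zinc finger gene among related copies that could share reads, had 2, 4 and 0 UMIs in treated 2CD7 and 8, 24 and 16 in treated 1CF10, at -2.79 ± 0.57 (SE, edgeR adjusted p = 0.000193). Its untreated sums, by which it was chosen, were 2 UMIs in 2CD7, 45 in 1CF10, 28 in EV and 16 in WT. Cbfa2t3, a corepressor of the ETO family, had untreated sums of 12 UMIs in each clone, 3 in EV and 46 in WT, its highest. After treatment it held 16 UMIs in 2CD7, 8 in 1CF10, 2 in EV and 23 in WT, and the treated clones did not pass the test (log2 difference 1.12 ± 0.65, SE, edgeR adjusted p = 0.304). Rnf144b and Xirp2 were both off in WT and on in 1CF10, and their promoter windows are shown because they differ in CpG content. That of Rnf144b (chr13:47122470-47122769, plus strand, the first of 2 listed) holds 27 CpG sites and that of Xirp2 (chr2:67445752-67446051, plus strand) holds 1, with observed-to-expected ratios of 0.956 and 0.0577.
Rnf144b: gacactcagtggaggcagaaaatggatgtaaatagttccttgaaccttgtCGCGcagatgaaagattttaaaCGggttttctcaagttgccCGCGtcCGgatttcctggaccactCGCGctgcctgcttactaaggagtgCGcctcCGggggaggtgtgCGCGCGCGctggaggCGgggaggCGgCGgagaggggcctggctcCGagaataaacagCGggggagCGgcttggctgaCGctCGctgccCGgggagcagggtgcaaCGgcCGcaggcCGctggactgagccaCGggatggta
Xirp2: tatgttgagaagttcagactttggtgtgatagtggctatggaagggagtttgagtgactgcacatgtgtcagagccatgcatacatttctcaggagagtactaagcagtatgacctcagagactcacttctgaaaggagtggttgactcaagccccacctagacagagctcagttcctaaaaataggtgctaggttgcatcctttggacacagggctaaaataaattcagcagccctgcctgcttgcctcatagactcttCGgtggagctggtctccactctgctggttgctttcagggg

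Fam149a, a protein-coding gene on chromosome 8 (45336717 to 45382291, minus strand), was off in 1CF10 and on in EV. Treated 2CD7 had 4, 6 and 5 UMIs and treated 1CF10 1, 0 and 0, a ratio of 16.4 (95% counting interval 2.52 to 690, edgeR adjusted p = 0.00363). Untreated 2CD7 held 5, 3 and 10 UMIs, untreated 1CF10 none, untreated EV 21, 14 and 21, and untreated WT 10, 8 and 9. Snord55 is a C/D box small nucleolar RNA, of the class that guides ribose methylation. It had 1, 4 and 1 UMIs in treated 2CD7 and 11, 6 and 6 in treated 1CF10, a log2 difference of -1.73 ± 0.62 that did not pass (SE, edgeR adjusted p = 0.0531), or 0.0384 when treated 2CD7 library 2 was left out. Such RNAs have no poly(A) tail, and the libraries were primed at poly(A), so the source of these tags is uncertain.

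Antisense or opposite-strand genes share exon positions with Cbfa2t3, Fxyd3, Wnt7b and Xirp2, and as the labels do not state whether counting used strand, the values of these 4 are uncertain to that extent. The members did not lie together in the genome. They were on 11 chromosomes, and the closest pair, Ly6c2 and Wnt7b, was 10.4 Mb apart. The nearest tested gene within 500 kb on each side gave 36 neighbours. Of these, 7 (19.4%) were called between treated 2CD7 and treated 1CF10, where 12.3% of all genes tested were. The change was in the direction of the member for 5 of them, among them Snhg18 and Ly6c1 above. Slc37a1, a sugar phosphate transporter gene that starts 9.41 kb from Rsph1 and runs the other way, held 5, 5 and 4 UMIs in treated 2CD7 and 0, 0 and 1 in treated 1CF10 (edgeR adjusted p = 0.00799). Fxyd5, of the same family as Fxyd3 and 25.7 kb away, had 219 ± 14 CPM in treated 2CD7 and 130 ± 11 CPM in treated 1CF10 (SD, n = 3). This was a smaller change than that of Fxyd3. The order of the lines differed, as treated EV had the most Fxyd5 (248 ± 4.7 CPM) but 0.893 ± 0.78 CPM of Fxyd3. Trim32, 247 kb from Pappa, had 13.6 ± 0.36 CPM in treated 2CD7 and 25.5 ± 1.1 CPM in treated 1CF10. Hrct1 near Glipr2 and Sdc2 near Sema5a moved against their member. No neighbour of the remaining members was called: Atp6v0e2, Cbfa2t3, Dync1i1, Fam149a, Ffar4, Gucy2c, Rab38, Raet1e, Rgs4, Rnf144b, Snord55, Wnt7b, Xirp2 and Zfp979.

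**Figure D5:**
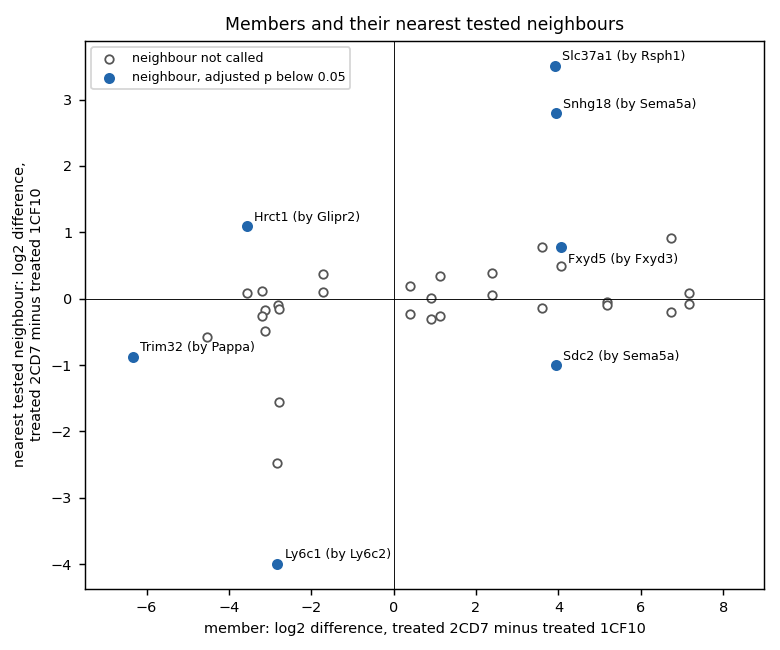
Log2 difference between treated 2CD7 and treated 1CF10 of each of 36 neighbours (vertical axis) against that of the member beside it (horizontal axis). The 7 neighbours with an edgeR adjusted p below 0.05 are filled and named; 5 of them lie in the quadrants of equal direction, and most others lie near 0 on the vertical axis.

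RefSeq promoter windows, from 250 bases before to 50 after a start, matched 14 of 20 members and 9312 of 14530 genes tested. As fewer than 80% of the members have a window, no comparison of CpG content between members and other genes is made. Among the 14, the observed-to-expected CpG ratio of the richest window ran from 0 in Ly6c2 to 1.09 in Cbfa2t3, and 8 reached 0.6 at a G and C content of 50% or more. Members silent in 1CF10 and members silent in 2CD7 or WT both included CpG-poor promoters.

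Lists that hold a member had called genes in both directions, where 12.3% of all genes tested were called. Of 67 tested cytokine, chemokine and growth factor genes, a list that holds Wnt7b, 13 were higher and 17 lower in treated 2CD7 than in treated 1CF10, with a median log2 difference of 0. Of 67 tested adhesion and guidance receptor genes, a list that holds Sema5a, 9 were higher and 9 lower with a median of 0.129. Over all genes tested 992 were higher and 796 lower, with a median of -0.007. No member was on the lists of imprinted, homeobox, germline, developmental transcription factor, matrix, keratin or other cell type genes.

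Comparisons with the controls could not be tested independently, since the rule read the treated sums of WT and EV. For completeness, 9 members were called between treated 2CD7 and treated EV, 7 higher and 2 lower (of all genes 12.8%, 5.82% higher and 7.01% lower). Between treated 1CF10 and treated EV there were 11, 8 higher and 3 lower (15.5%, 6.46% and 9.06%). Treated 2CD7 differed from treated WT at 5, 4 higher and 1 lower (11%, 4.14% and 6.87%). Treated 1CF10 differed from treated WT at 15, 8 higher and 7 lower (26%, 11.9% and 14.1%). Treated EV differed from treated WT at 7, all lower (15.3%, 7.04% and 8.22%). These comparisons share samples, and nothing is read from the counts.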

How the data were processed

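The authors deposited raw UMI counts per Ensembl gene without normalization, a column per library, made by poly(A) priming with a UMI of 10 bp, per the labels. Builds GRCm38 and mm10 are listed in the submitters' processing notes, as are cutadapt 3.0, limma 3.50.0, edgeR 3.36.0 and R in versions 3.6.2 and 4.1.2. The aligner and the use of strand are not given in the sources used here. Coordinates come from GENCODE M21 (GRCm38), to which 24538 of 24614 genes and all 20 members matched, and promoters from RefSeq (GRCm38.p6).

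All 24 libraries were fitted together in edgeR 4.0.16 (R 4.3.3) with TMM scaling, 8 group means, robust estimation of dispersions, and tested by quasi-likelihood F tests. Genes with 30 UMIs or more in all were tested, 14530 genes, a filter that each member passes by its rule. SE is the log2 difference divided by the square root of F. Ratios with 1 to 3 UMIs in a group have exact 95% intervals from pooled sums, which cover counting error only, and ratios to 0 UMIs are bounds against 3 UMIs over the group. CPM is scaled to the library total. The fit was tested on simulated data with changes placed only in genes of higher average level than the members. That test therefore does not cover on or off differences at counts as low as theirs. Alternatives were RLE scaling, DESeq2 1.42.0, other filters, a replicate block, the compared groups alone, each library left out and other limits for the rule. The members and lists were chosen with earlier results of these data known. The naming rule, up to 6 members for each set of silent lines, names all 20. The nearest-neighbour comparison was chosen after seeing the data. Some items on the surroundings of a member are not reported here.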

Additional observations from a re-analysis of the deposited data

How the results depend on the processing

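The member list depends on its limits. It held 39 genes with an on limit of 20 UMIs, 5 with 50, 11 with an off limit of 1 UMI and 43 with 6, and 26 to 31 when an untreated replicate number was left out with limits of 20 and 2. Scaling the untreated sums to equal totals gave 17 members, all among the 20. Of the 16 members called between treated 2CD7 and treated 1CF10, 15 were called under each alternative that tested them. Gucy2c was lost with DESeq2 only. Fam149a and Sema5a were not tested with the compared groups alone, and Ly6c2 was not tested under a stricter filter. The log2 difference of Raet1e, not called to begin with, ran between -0.07 and 0.68 as single treated libraries were left out. It was negative without treated 1CF10 library 1 (edgeR adjusted p = 0.952), and the cause was not tested. Leaving out treated 1CF10 library 3 kept the count of members called at 16. Deviations of same-numbered libraries from different groups correlated at 0.0192 on average (-0.153 to 0.15), against -0.00961 (-0.307 to 0.287) for libraries of other numbers. For 13 of the 24 libraries, the mean correlation with other groups was highest at their own number. Whether replicate numbers pair the samples was not tested. A replicate block gave 1801 genes called between the treated clones, against 1788 without it, and 16 members. On lines held 30 to 93 UMIs untreated, and the treated ratios rest on as few as 15 UMIs in the higher clone (Fam149a in 2CD7). Ratios are thus known within wide intervals, and a gene at 0 UMIs may still be transcribed below this depth.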

Other observations

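Rows outside the rule showed the same kind of split. On the X chromosome, Xist, the noncoding RNA that coats the inactive X, had at most 2 UMIs in any library of 2CD7, 1CF10 or EV, against 27, 25 and 18 in treated WT and 22, 15 and 38 in untreated WT. Smarca1, a chromatin remodelling ATPase gene on the X, had untreated sums of 38 UMIs in 2CD7, 0 in 1CF10, 14 in EV and 47 in WT, and treated sums of 36, 1, 10 and 38 in the same lines. Bhlhb9, also on the X, had untreated sums of 0 in 2CD7, 33 in 1CF10, 22 in EV and 35 in WT, and treated sums of 1, 57, 20 and 21.

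Among the 6 genes removed as interferon-induced, Tanc2 and Ly6a also differed between the clones, which lack Ifnar1. Tanc2 had treated sums of 7 UMIs in 2CD7 and 42 in 1CF10, with 2 and 36 untreated. Ly6a, of the Ly6 cluster that holds Ly6c2, had treated sums of 3 and 65 UMIs in the same clones, with 2 and 80 untreated. These genes were picked after their values were seen, and no test is given.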
